A study of Mus musculus with 12 samples.

Results

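The messenger RNAs described here are those of 9 chaperones and folding enzymes of the endoplasmic reticulum (ER), *Hspa5*, *Hsp90b1*, *Dnajb9*, *Sdf2l1*, *Calr*, *Canx*, *Pdia3*, *Pdia4* and *Pdia6*, and of the transcription factor *Xbp1*. They were taken from the count table by gene name. All 10 names were found, each on 1 row, among 55401 genes, and all 10 passed the filter on low counts, which left 25771 genes for testing. RNA came from Pax7-ZsGreen+ satellite cells, the stem cells of skeletal muscle, sorted from the hind limbs of adult mice. All mice were homozygous for floxed *Cxcr4* (CXCR4 FL/FL), carried the Pax7-ZsGreen reporter and received tamoxifen at 80 mg/kg on 5 days. WT mice had no cre, whereas *Cxcr4* KO mice also carried Pax7-creERT2, so that deletion was limited to cells with an active Pax7 locus. Libraries of freshly sorted cells are called quiescent (4 WT, 4 KO) and libraries of sorted cells kept overnight in growth medium are called activated (2 WT, 2 KO).

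In the lumen of the ER, *Hspa5* encodes BiP, the Hsp70 chaperone that binds unfolded chains and also holds the stress sensors Ern1 (IRE1), Eif2ak3 (PERK) and Atf6 inactive. When unfolded protein accumulates, Atf6 is cleaved and Ern1 splices the *Xbp1* message, and the resulting transcription factors raise chaperone genes through the ER stress response element (ERSE), a CCAAT box bound by NF-Y followed by CCACG. The lectins calreticulin (*Calr*) and calnexin (*Canx*) hold glycoproteins for the disulfide isomerase Pdia3 in a separate folding cycle. In satellite cells the PERK branch is known for its part in keeping quiescence.

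The ERSE is printed first, because it is the promoter letter pattern that several of these genes share. RefSeq promoters of GRCm38.p6 were matched for all 10 genes, and the 250 bases upstream of each start were searched on both strands for CCAAT and CCACG with 9 bases of any kind between them. It was found upstream of 5 of the 10 genes and of 35 of 27025 genes in all (0.13%). The element was already known from chaperone genes, so these counts are a description, with no test. The matches are written 5′ to 3′ on the strand that reads CCAAT first, with the CCAAT and CCACG parts in capitals.
Hspa5, chr2:34772025-34772043, same strand as the gene: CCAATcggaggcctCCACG
Hsp90b1, chr10:86705638-86705656, same strand as the gene: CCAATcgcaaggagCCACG
Hsp90b1, chr10:86705533-86705551, opposite strand: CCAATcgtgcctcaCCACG
Pdia6, chr12:17266491-17266509, same strand as the gene: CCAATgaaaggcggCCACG
Calr, chr8:84847075-84847093, opposite strand: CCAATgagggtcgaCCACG
Canx, chr11:50325800-50325818, same strand as the gene: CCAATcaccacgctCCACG
*Hsp90b1* held 2 matches, on opposite strands. No match lay in the windows of *Pdia3*, *Pdia4*, *Dnajb9*, *Sdf2l1* or *Xbp1*, which says only that these letters are not in those 250 bases.

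The whole windows are shown for *Hspa5* and *Canx*, which both hold the element and of which, in culture, *Hspa5* fell and *Canx* lay higher. The exact match to the ERSE is in capitals, and near matches with changed letters were not searched for. Each window is on the strand of its gene and ends at the base before the RefSeq start.
Hspa5, chr2:34771840-34772089, plus strand: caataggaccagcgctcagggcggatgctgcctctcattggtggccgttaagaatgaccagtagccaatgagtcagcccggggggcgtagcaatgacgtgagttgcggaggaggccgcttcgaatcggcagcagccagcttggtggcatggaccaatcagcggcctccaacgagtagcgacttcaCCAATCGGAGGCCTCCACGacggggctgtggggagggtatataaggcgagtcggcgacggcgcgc
Canx, chr11:50325674-50325923, minus strand: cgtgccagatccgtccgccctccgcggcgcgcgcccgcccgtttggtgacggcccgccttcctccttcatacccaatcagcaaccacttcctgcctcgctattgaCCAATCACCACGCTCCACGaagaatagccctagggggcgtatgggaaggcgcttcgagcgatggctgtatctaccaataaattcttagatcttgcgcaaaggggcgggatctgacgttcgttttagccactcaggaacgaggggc
The exact match ran from position -65 to -47 in *Hspa5* and from -145 to -127 in *Canx*, counted from the RefSeq start. The first start in the GENCODE annotation lies 120 bases before the RefSeq start of *Hspa5* and at the RefSeq start of *Canx*. The *Hspa5* match is therefore within the GENCODE gene. The GENCODE start lies 258 bases before the RefSeq start of *Dnajb9*, so the whole window of that gene, where no ERSE was found, is within the GENCODE gene. It lies 127 bases before that of *Pdia3*, so the nearer part of its window is too. For *Pdia4* and *Xbp1* it lies 82 and 18 bases after the RefSeq start, and the bases between were not searched. The related pattern ERSE-II (ATTGG and CCACG with 1 base of any kind between them) was found upstream of none of the 10 genes and of 10 genes in all (0.037%), with *Herpud1* among them. TGACGTGG, a site of Xbp1 and Atf6, was found in none of the 10 windows and in 0.603% of genes. CCACG by itself was present in 7 of the 10 windows (31.0% of genes) and CCAAT in 9 of the 10 (37.5% of genes), both counts including the ERSE matches, and *Xbp1* was the gene without CCAAT.

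Depth differed between the states. Quiescent libraries held 12775593 to 23717013 counts and activated libraries 3172164 to 5427280 counts, of which the ribosomal RNA gene *CT010467.1* took 11.5 to 40.3% in activated and under 1% in quiescent libraries. *Cxcr4*, the targeted gene, had 80.5 ± 25.3 CPM (SD, n = 4) in quiescent WT, 17.1 ± 3.54 CPM (SD, n = 4) in quiescent KO, 33.3 and 14.4 CPM in activated WT, and 5.39 and 13.7 CPM in activated KO libraries. The library labelled KO activated 2 was thus level with WT activated library 2, so its *Cxcr4* value does not show the loss, and *Cxcr4* did not pass between activated KO and WT cells (log2 difference -1.35, adjusted p = 0.381). CPM are counts scaled to a common library size, with TMM factors set on the genes that change least. *Xist* was at 1.204 to 7.17 CPM in quiescent and 451 to 817 CPM in activated libraries, and the sum of 4 Y-linked genes was 358 to 660 and 0 to 2.51 CPM, so culture and the sex of the mice cannot be told apart. Satellite cell markers summed to 4696 to 8211 CPM in quiescent and 2673 to 4070 CPM in activated libraries. Of these 10 genes, 6 fell and 1 rose in WT, and 7 fell and 1 rose in KO. *Pax7* was at 181 to 482 CPM in quiescent and 71.2 to 129 CPM in activated libraries. *Myod1* overlapped between the states, at 813 to 3097 and 1260 to 1886 CPM. The paper places the earliest step of activation in the enzyme digestion before sorting, so quiescent here means freshly sorted. Markers of muscle fibre summed to 270 to 897 CPM in quiescent and 6053 to 14971 CPM in activated libraries, and all 8 rose in both genotypes, whereas the summed markers of smooth muscle were 2768 to 3907 and 983 to 1353 CPM. Of the 8 smooth muscle markers, 5 fell in WT and 6 in KO, and 0 rose. Their sum rests largely on *Des* and *Notch3*, with means of 1184 and 895 CPM in quiescent WT, where *Acta2* had 181 CPM. In activated WT, with sums of 983 to 1103 CPM, the means were 703 CPM for *Des*, 18.2 CPM for *Notch3* and 14.2 CPM for *Acta2*. The 8 blood cell markers summed to 87.8 to 370 CPM in quiescent and 40.7 to 67.1 CPM in activated libraries without overlap, and 4 of them fell in WT and 5 in KO. The 6 markers of plasma cells, which are rich in *Xbp1* and ER chaperones, summed to 78.0 to 421 and 43.3 to 93.4 CPM, and 2 fell in WT and 4 in KO. Of these, *Jchain* had 3 to 24 counts in quiescent WT, 3 to 297 in quiescent KO and 0 in each activated library. *Igkc* had 36 to 540 counts in quiescent WT, 16 to 2182 in quiescent KO and 0 to 3 in activated libraries. Such counts are not scaled for the lower depth of activated libraries. *Mzb1*, with at most 4 counts in a WT library, went from a mean of 0.066 to 0.30 CPM in WT. In KO its mean went from 1.12 to 0.36 CPM. The part of these differences in the results below was not tested. In bulk RNA, fewer cells of a type and less RNA per cell cannot be told apart.

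The members spanned a wide range of abundance. Per kilobase of exon, *Hspa5* had the highest mean in every group, at 1050 ± 149 CPM/kb in quiescent WT (SD, n = 4), and *Sdf2l1* the lowest, at 7.82 ± 2.31 CPM/kb. Between them, in quiescent WT cells, stood *Calr* (257 ± 38.0 CPM/kb), *Xbp1* (140 ± 30.3 CPM/kb), *Dnajb9* (75.5 ± 15.1 CPM/kb), *Hsp90b1* (54.3 ± 7.16 CPM/kb), *Pdia3* (41.8 ± 6.78 CPM/kb), *Canx* (34.2 ± 5.35 CPM/kb), *Pdia6* (23.5 ± 5.60 CPM/kb) and *Pdia4* (13.99 ± 2.98 CPM/kb). From *Dnajb9* down to *Pdia6*, each gene lay closer to the next than the sum of their SDs, whereas the other neighbours lay farther apart. In activated cells the libraries of *Hspa5* and *Calr* overlapped, at 141 to 233 and 137 to 153 CPM/kb in WT. In activated KO they were at 161 to 174 and 103 to 168 CPM/kb, and in its library 1 *Calr* was above *Hspa5*. By raw count, *Hspa5* ranked 11 to 15 among all genes in quiescent WT, 8 to 29 in quiescent KO, 58 to 127 in activated WT and 93 to 117.5 (a tie) in activated KO libraries. The 10 genes together took 0.412 to 0.906% of counts in quiescent and 0.115 to 0.246% in activated libraries, a share that the ribosomal RNA gene lowers. Without that gene in the total, the shares were 0.413 to 0.909% and 0.193 to 0.281%.

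**Figure D1:**
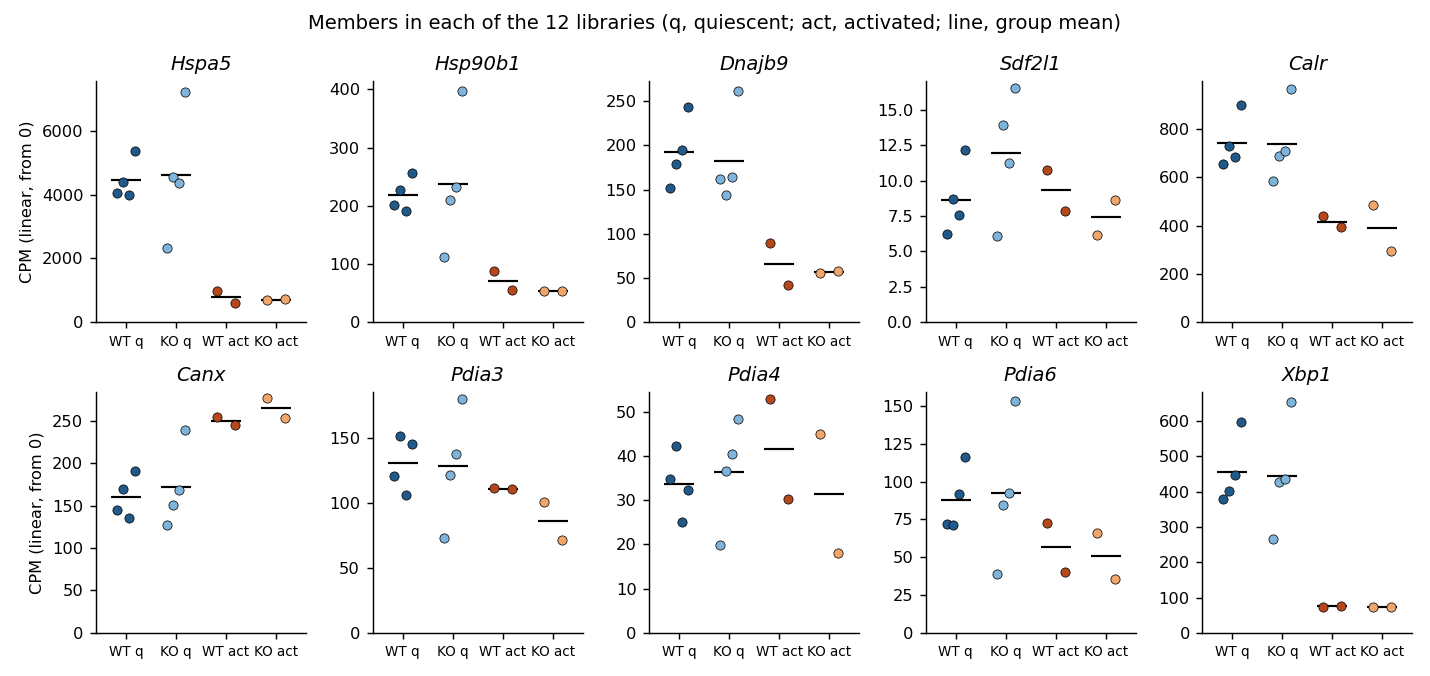
CPM (linear axis from 0) of the 10 genes in each of the 12 libraries, 1 point per library, with a line at the mean of each group. *Hspa5*, *Hsp90b1*, *Dnajb9*, *Calr* and *Xbp1* lie lower in all 4 activated than in all 8 quiescent libraries, *Canx* lies higher, and the other members overlap.

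The first comparison asked how these messages differ between cells fresh from the muscle and cells after a night in culture. In WT cells, *Xbp1*, *Hspa5*, *Hsp90b1*, *Dnajb9* and *Calr* fell, from 6.07-fold for *Xbp1* to 1.78-fold for *Calr*, while no member rose. The disulfide isomerases *Pdia3*, *Pdia4* and *Pdia6*, *Canx* and *Sdf2l1* did not pass the test. By edgeR's quasi-likelihood test at an adjusted p under 0.05, 5 of the 10 members passed lower, where 18.3% of all genes tested did, and 0 passed higher, where 11.5% of all genes did. The same 5 fell in KO cells, where 20.4% of all genes passed lower and 13.3% higher. The median log2 fold change was -0.73 over the members and -0.92 over all genes tested in WT, and -0.89 and -0.96 in KO. Many of the genes tested are scarce, and over the 7361 genes with an average log2 CPM above 4 the medians were -0.14 and -0.11. Larger shares of these 7361 genes passed, with 2207 lower and 1795 higher in WT, and 2313 lower and 1961 higher in KO. Both genotypes share one fit.

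*Hspa5*, the ER Hsp70, was at 4056, 4393, 3971 and 5349 CPM in the 4 quiescent WT libraries and at 2317, 4535, 4360.0 and 7226 CPM in quiescent KO. Activated libraries were at 984 and 598 CPM in WT and at 679 and 737 CPM in KO. Every activated library lay below every quiescent one, the lowest of which, KO library 1, was also apart from the other quiescent libraries. The log2 fold change was -2.49 (SE 0.40, adjusted p = 7.95e-05) in WT and -2.70 (SE 0.40, adjusted p = 3.44e-05) in KO. It stayed between -2.82 and -2.12 in WT and between -2.91 and -2.39 in KO when each library was left out in turn, and passed each time.

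*Dnajb9* and *Sdf2l1* both work with BiP, *Dnajb9* (ERdj4) as a J-domain co-chaperone and *Sdf2l1* as a stress-inducible ER protein found in complexes with J-proteins. *Dnajb9* was at 152, 179, 195 and 244 CPM in quiescent WT and at 162, 143, 164 and 262 CPM in quiescent KO. Its activated libraries were at 89.4 and 42.5 CPM in WT and at 55.99 and 57.9 CPM in KO, without overlap with the quiescent ones. The fold change was -1.53 on the log2 scale in WT (SE 0.33, adjusted p = 0.00145) and -1.68 in KO (SE 0.33, adjusted p = 0.000619). Without WT activated library 2, the shallowest, the WT value was -1.05 (adjusted p = 0.0719) and the call was lost.

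*Sdf2l1* was scarce, with 18 to 66 counts per activated library. Quiescent libraries were at 6.21, 8.73, 7.54 and 12.2 CPM in WT and 6.10, 13.9, 11.3 and 16.5 CPM in KO, and activated libraries at 10.8 and 7.88 CPM in WT and 6.16 and 8.67 CPM in KO. The states overlapped in both genotypes. The log2 difference was 0.13 in WT (95% CI -0.75 to 1.00, adjusted p = 0.825) and -0.68 in KO (95% CI -1.58 to 0.21, adjusted p = 0.213), intervals that still allow a change in either direction.

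*Hsp90b1* encodes Grp94, the Hsp90 of the ER, which folds integrins, Toll-like receptors and insulin-like growth factors. It was at 201, 227, 191 and 256 CPM in quiescent WT and at 112, 209, 233 and 397 CPM in quiescent KO, with the same low and high KO libraries as *Hspa5*. Activated WT libraries were at 88.2 and 54.7 CPM and activated KO libraries at 52.9 and 53.2 CPM, all below the quiescent ones. The log2 fold change was -1.61 in WT (SE 0.38, adjusted p = 0.00302) and -2.16 in KO (SE 0.39, adjusted p = 0.000256). As for *Dnajb9*, the WT call was lost without WT activated library 2, at -1.25 (adjusted p = 0.0766). *Hsp90b1* shares 415 exonic bases with *1810014B01Rik* on the opposite strand, a pseudogene with counts equal to 1.78% of those of *Hsp90b1* over the 12 libraries, and reads from the overlap could not be told apart unless the counting used strand.

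Calreticulin and calnexin, the soluble and the membrane-bound lectin chaperone of one folding cycle, differed in direction. *Calr* was at 653, 731, 683 and 898 CPM in quiescent WT and at 583, 688, 709 and 965 CPM in quiescent KO. It was at 440 and 393 CPM in activated WT and at 485 and 295 CPM in activated KO libraries, below every quiescent library. The log2 fold change was -0.83 in WT (SE 0.28, adjusted p = 0.0323) and -0.92 in KO (SE 0.28, adjusted p = 0.0178). These calls were the least secure of the 5. In WT the call was lost in 4 of 6 fits that left out a library (WT quiescent 2 and 4, each WT activated library), with adjusted p up to 0.270, and in KO without KO activated library 2, at -0.59 (adjusted p = 0.332).

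*Canx* was the member that stood higher in culture. It was at 145, 170, 136 and 192 CPM in quiescent WT and at 128, 151, 169 and 240 CPM in quiescent KO, against 255 and 245 CPM in activated WT and 277 and 254 CPM in activated KO libraries. All 4 activated libraries lay above all 8 quiescent ones. Within a genotype, 17.6% of genes in WT and 18.3% in KO were higher without overlap. The share over both genotypes together was not computed. The log2 difference was 0.64 in WT (SE 0.26, 95% CI 0.10 to 1.18, adjusted p = 0.0679) and 0.63 in KO (SE 0.26, 95% CI 0.09 to 1.17, adjusted p = 0.0658), so it did not pass. It passed with DESeq2's size factors in place of TMM, at 0.71 in WT (adjusted p = 0.0339) and 0.65 in KO (adjusted p = 0.0468). By DESeq2 on all 12 libraries *Canx* passed as well (adjusted p = 0.0194 in WT and 0.0304 in KO).

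The disulfide isomerases form and rearrange disulfide bonds, Pdia3 on glycoproteins held by the lectins and Pdia6 and Pdia4 alongside BiP. *Pdia3* was at 121, 152, 106 and 146 CPM in quiescent WT and 73.2, 122, 138 and 180 CPM in quiescent KO, and at 112 and 111 CPM in activated WT and 101 and 71.4 CPM in activated KO. *Pdia6* was at 72.1, 71.6, 91.8 and 116 CPM and at 39.0, 84.2, 92.3 and 153 CPM in quiescent WT and KO, and at 72.5 and 40.3 CPM and 65.8 and 35.4 CPM after activation. *Pdia4* was at 34.7, 42.3, 24.96 and 32.4 CPM and at 19.9, 36.6, 40.4 and 48.4 CPM in quiescent WT and KO, and at 52.8 and 30.2 CPM and 44.9 and 18.0 CPM after activation. The states overlapped for all 3 isomerases in both genotypes, and the 2 activated libraries of *Pdia4* and *Pdia6* stood far apart within each genotype. None passed in either genotype. The log2 differences were -0.63 for *Pdia6* (95% CI -1.48 to 0.23, adjusted p = 0.240), -0.24 for *Pdia3* (95% CI -0.87 to 0.39, adjusted p = 0.541) and 0.32 for *Pdia4* (95% CI -0.45 to 1.09, adjusted p = 0.496) in WT. In KO they were -0.87 for *Pdia6*, -0.57 for *Pdia3* and -0.21 for *Pdia4* (adjusted p = 0.110, 0.148 and 0.665). *Pdia6* and *Pdia3* passed in KO without KO quiescent library 1, the low one, at -1.11 (adjusted p = 0.0237) and -0.76 (adjusted p = 0.0398).

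*Xbp1*, the transcription factor whose message Ern1 splices, had the most even activated libraries. It was at 379, 400.5, 448 and 598 CPM in quiescent WT and 265, 426, 436 and 654 CPM in quiescent KO, and at 74.5 and 75.8 CPM in activated WT and 73.5 and 73.0 CPM in activated KO. Within each genotype the states did not overlap, as for the other 4 members that fell, where 38.4% of genes in WT and 36.1% in KO were lower without overlap. The log2 fold change was -2.60 in WT (SE 0.34, adjusted p = 1.08e-05) and -2.60 in KO (SE 0.34, adjusted p = 9.20e-06), and it passed in each of the 12 fits without a library. Gene counts do not separate the spliced from the unspliced message.

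**Figure D2:**
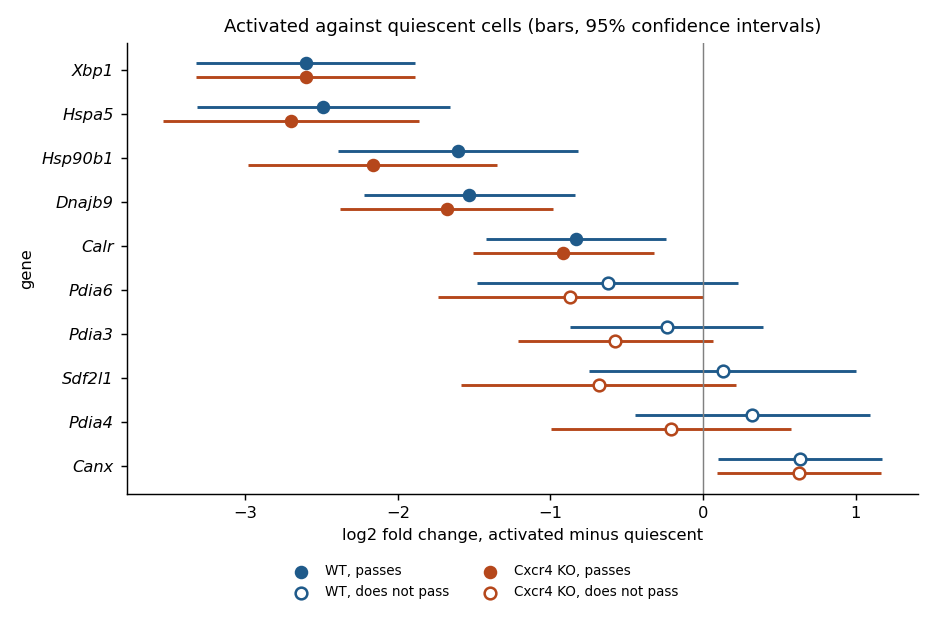
Log2 fold change between activated and quiescent cells of each member (x axis; bars, 95% confidence intervals) in WT and in *Cxcr4* KO cells, with filled points for genes that pass at an adjusted p under 0.05. *Xbp1* and *Hspa5* lie near -2.5, *Calr* near -0.9, and *Canx* lies above 0 in both genotypes without passing.

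Because a fold change between the states depends on how libraries are scaled, *Hspa5* was also set against each other member within a library, where scaling cancels. This measure was chosen after the values were seen. *Hspa5* made up 69.7, 68.9, 67.8 and 68.2% of the counts of the 10 genes in quiescent WT and 62.6, 70.8, 68.6 and 71.2% in quiescent KO libraries. It made up 45.2 and 37.4% in activated WT and 36.9 and 46.0% in activated KO libraries. The 95% Wilson interval of a share, which covers counting error only, was widest in WT activated library 2, from 35.9 to 39.0%. The mean share was 41.4% in the 4 activated and 68.5% in the 8 quiescent libraries. No activated library reached the lowest quiescent share in either genotype. Since the measure followed from values already seen, the shares and ratios are a description, with no test.

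*Xbp1* was the member whose ratio to *Hspa5* overlapped between the states. The log2 ratio of *Hspa5* to *Xbp1* counts was 3.13 to 3.47 in quiescent and 2.98 to 3.72 in activated libraries, and the means differed by -0.002. Against each of the other 8 members the ratio was lower in all 4 activated than in all 8 quiescent libraries, but so it was against 74.4% of the 7360 other genes with an average log2 CPM above 4, where the median difference was -2.43. The difference was -0.72 against *Hsp90b1* and -0.93 against *Dnajb9*, which also fell. It was -1.68 against *Calr*, -1.83 against *Pdia6*, -2.18 against *Pdia3*, -2.32 against *Sdf2l1*, -2.56 against *Pdia4* and -3.22 against *Canx*.

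**Figure D3:**
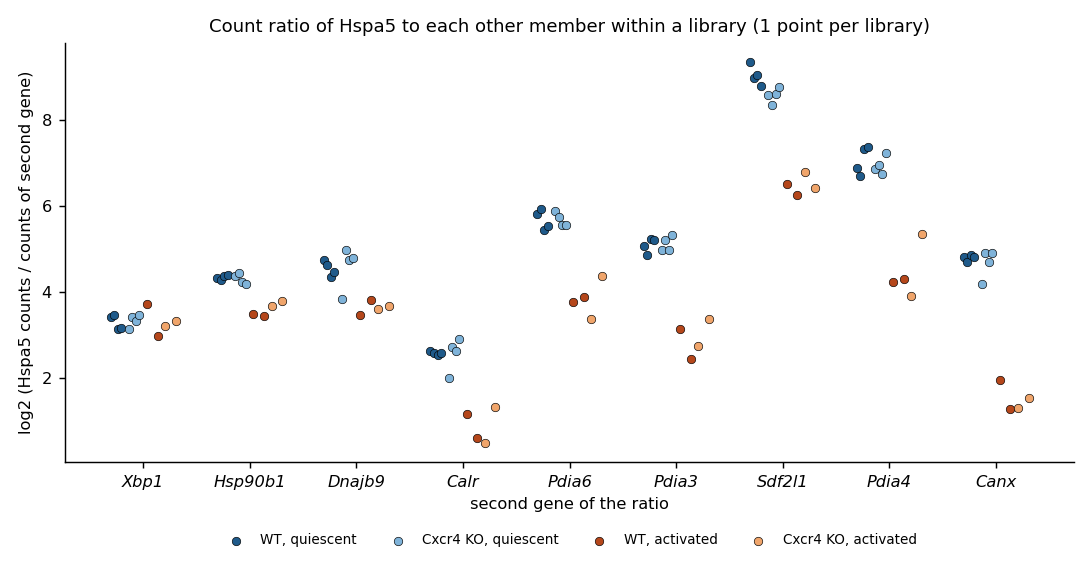
Log2 ratio of *Hspa5* counts to the counts of each other member within a library, 1 point per library, coloured by group. The ratio to *Xbp1* lies between 2.98 and 3.72 in all groups, and for the other 8 genes the activated libraries lie below the quiescent ones, by 3.22 on average for *Canx*.

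The second comparison asked whether loss of *Cxcr4* altered these genes. None of the 10 passed between KO and WT quiescent cells, where 4 of all genes tested did (0.0155%; 448, or 1.74%, at an unadjusted p under 0.05). The log2 differences ran from -0.07 for *Dnajb9* (95% CI -0.59 to 0.44) to 0.46 for *Sdf2l1* (95% CI -0.21 to 1.14), with 6 above and 4 below 0 and an adjusted p of 1 for each. For *Hspa5* the difference was 0.05 (95% CI -0.54 to 0.65), for *Hsp90b1* 0.12 (95% CI -0.47 to 0.71) and for *Xbp1* -0.04 (95% CI -0.54 to 0.47). KO libraries 1 and 4 spread on either side of all WT libraries for *Hspa5*, *Hsp90b1*, *Calr*, *Canx*, *Pdia3*, *Pdia4*, *Pdia6*, *Xbp1* and *Sdf2l1*. With that spread, changes smaller than these intervals could not be detected. The sums of blood cell markers were 96.9 to 370 CPM in quiescent KO and 87.8 to 172 CPM in quiescent WT, and those of plasma cell markers 86.9 to 421 and 78.0 to 127 CPM.

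Between activated KO and WT cells, where *Cxcr4* in the library labelled KO activated 2 was level with a WT library, none of the 10 members passed either, where 13 of all genes did (0.0504%; 2158, or 8.37%, at an unadjusted p under 0.05). The log2 differences ran from -0.44 for *Hsp90b1* (95% CI -1.30 to 0.42, adjusted p = 0.885) to 0.09 for *Canx* (95% CI -0.55 to 0.72), and 9 of the 10 were below 0. Of all 25771 genes 9690 were below 0, and 3380 of the 7361 with an average log2 CPM above 4. Members that vary together are not separate observations, so the count of 9 is a description. *Hsp90b1*, *Pdia3* and *Xbp1* were lower in both KO than in both WT libraries, as were 9.5% of all genes. With 2 libraries a group, the difference for *Hspa5* was -0.16 (95% CI -1.001 to 0.68) and for *Xbp1* -0.04 (95% CI -0.77 to 0.70). The difference between the states in the KO effect did not pass for any member, and for 0 of all genes (0%; 1699, 6.59%, at an unadjusted p under 0.05). It ran from -0.81 for *Sdf2l1* (95% CI -2.06 to 0.43) to -0.001 for *Xbp1* (95% CI -0.89 to 0.89). In these 3 comparisons 0 members had an unadjusted p under 0.05 in edgeR's quasi-likelihood test, and by DESeq2 0 members passed, against 5, 150 and 47 of all genes.

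**Figure D4:**
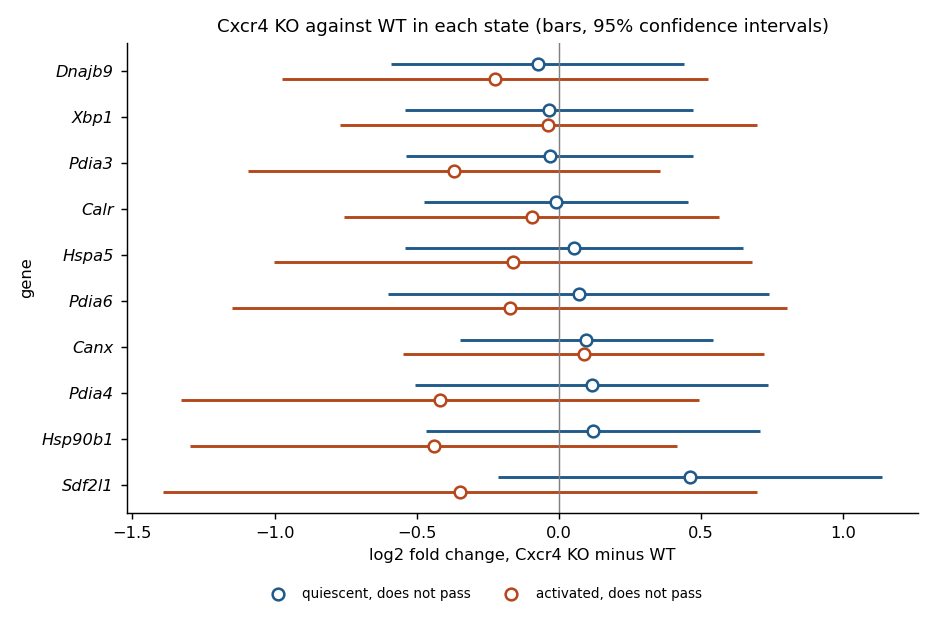
Log2 difference between *Cxcr4* KO and WT cells of each member in quiescent and in activated cells (x axis; bars, 95% confidence intervals). Every interval includes 0, and those of activated cells, with 2 libraries a group, are the wider ones.

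The quiescent libraries also allowed a look at how the members varied together within each genotype of freshly sorted cells. The marker sums of these libraries differed too, such as those of fibroadipogenic progenitors, from 350 to 3268 CPM. After removal of each genotype's mean, the log2 CPM of all 45 pairs of members were positively correlated over the 8 libraries, with a median Pearson r of 0.87 and a range of 0.28 to 0.99. The median r of *Hspa5* with the 7361 genes above an average log2 CPM of 4 was 0.25. Ranked by r among those genes, *Hsp90b1* was at 2, *Pdia6* at 19, *Xbp1* at 25 and *Pdia3* at 43. *Calr* was at 109, *Canx* at 117, *Pdia4* at 366 and *Dnajb9* at 1379, and *Sdf2l1* was too scarce to be ranked. Libraries share their depth and scaling, so that a gene's neighbours in this measure are a description. KO library 1 was the lowest or next to lowest for all 10 genes in its group and KO library 4 the highest.

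*Hsp90b1* followed *Hspa5* most closely among the members (r = 0.989, rho = 0.929; exact permutation p = 0.00521 for r and 0.00694 for rho, libraries permuted within genotype; adjusted over 9 members 0.0208 and 0.0312). Without KO libraries 1 and 4, the farthest from the median of *Hspa5*, its r was 0.869 over 6 libraries. The genotype means were not taken again for such values, so these 2 libraries still enter through the KO mean. The permutation p-values in this paragraph are against no relation at all. How many other genes would pass the same test was not computed, so they do not set the members apart. For *Xbp1*, r was 0.953 and rho 0.905 (exact permutation, adjusted p = 0.0234 and 0.0469), with r = 0.828 without those 2 libraries. For *Sdf2l1* and *Calr* r was 0.920 and 0.911, and 0.925 and 0.895 with the points of the 2 libraries dropped and the KO mean kept. *Pdia4* behaved differently, with r = 0.839 (rho = 0.667; exact permutation, adjusted p = 0.0605 and 0.115) and 0.251 without the 2 libraries, so that this relation rests on them. *Dnajb9* was the loosest, with r = 0.646 (rho = 0.500; exact permutation, adjusted p = 0.200 and 0.212) and 0.566 without them. *Pdia6*, *Pdia3* and *Canx* lay between, with r of 0.959, 0.944 and 0.908, rho of 0.786, 0.786 and 0.833 and 0.688, 0.664 and 0.799 without the 2 libraries, and their adjusted p from the exact permutation test was 0.0268, 0.0234 and 0.0234 for r and 0.0603, 0.0603 and 0.0562 for rho.

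The 6 genes outside the list with the pattern most like *Hspa5* were *Galnt17* (r = 0.990), *Dnajb11* (r = 0.978), *Hyou1* (r = 0.972), *Herpud1* (r = 0.972), *Ankrd29* (r = 0.971) and *Tcaf1* (r = 0.967). They were chosen for this r among 7361 genes over 8 libraries, so it carries no test. *Dnajb11* (ERdj3) and *Hyou1* (Grp170) are a co-chaperone and a nucleotide exchange factor of BiP, and *Herpud1* belongs to ER-associated degradation. *Galnt17* is a glycosyltransferase of the mucin type family. Without KO libraries 1 and 4, but with the same genotype means, r was 0.899 for *Galnt17*, 0.892 for *Dnajb11*, 0.886 for *Hyou1*, 0.870 for *Ankrd29*, 0.765 for *Herpud1* and 0.548 for *Tcaf1*. The likeness did not extend to culture for all of them. In WT, *Herpud1* fell with a log2 fold change of -2.81, whereas *Hyou1* (0.18, adjusted p = 0.706) and *Dnajb11* (-0.04, adjusted p = 0.933) did not pass.

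**Figure D5:**
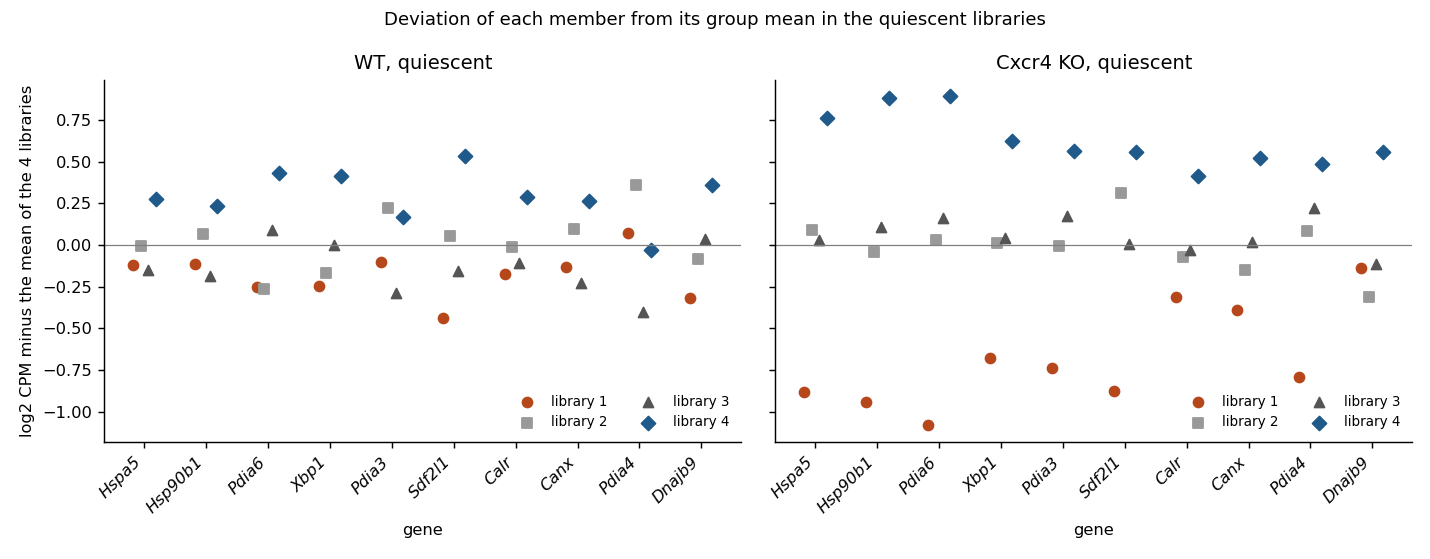
Deviation of each member's log2 CPM from the mean of the 4 quiescent libraries of its genotype, with 1 marker per library (WT left, *Cxcr4* KO right). KO library 1 lies below the mean and KO library 4 above it for all 10 genes, while WT libraries spread less.

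KO libraries 1 and 4 also differed in their marker sums. Library 1 had the lowest sum of fibroadipogenic progenitor markers of the quiescent libraries (350 CPM, others 749 to 3268 CPM) and the highest sum of endothelial (1503 CPM) and plasma cell markers (421 CPM). Library 4 had the lowest sum of endothelial markers (303 CPM) and the highest of blood cell (370 CPM) and satellite cell markers (8211 CPM). *Myod1*, at 2945 CPM in library 4, was a large part of its satellite cell sum. *Pax7* was at 279 CPM in that library, against 181 to 290 CPM over quiescent KO and 303 to 482 CPM over quiescent WT libraries. The part of these marker levels in the spread of the members was not tested.

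Genes around the members in the secretory pathway moved in both directions on activation. Their counts stand beside 11.5% of all genes higher and 18.3% lower in WT, and 13.3% higher and 20.4% lower in KO. The shares were larger among the 7361 genes with an average log2 CPM above 4. Of these, 1795 passed higher and 2207 lower in WT, and 1961 higher and 2313 lower in KO. Of 26 other ER folding factors tested in WT, 5 rose, 7 fell and 14 did not pass. *Mogs*, the glucosidase that makes the first cut in glycan trimming, rose by 2.72 on the log2 scale (SE 0.28, adjusted p = 7.47e-07), and *Txndc5*, a disulfide isomerase, by 1.24 (SE 0.26, adjusted p = 0.00132). *Fkbp7*, a prolyl isomerase, fell by 2.61 (SE 0.44, adjusted p = 0.00014) and *Dnajc3* (p58IPK), a co-chaperone of BiP, by 2.54 (SE 0.37, adjusted p = 3.35e-05). *Dnajc3* went from 176 to 277 CPM in quiescent WT to 30.2 and 40.7 CPM in activated WT. The median of the list was -0.18. In KO, 4 rose and 10 fell.

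ER-associated degradation, which returns misfolded proteins to the cytosol for the proteasome, had 5 genes up and 4 down of 19 in WT, the latter a share near the 18.3% of all genes. *Herpud1* and *Edem1*, which serve the delivery of substrates, fell by 2.81 and 2.38 on the log2 scale (adjusted p = 6.67e-06 and 0.000407), and *Nploc4* and *Derl2* rose by 1.63 and 1.32 (adjusted p = 0.000599 and 0.000469). In KO, 5 rose and 5 fell. The translocation and signal peptide list had 5 genes up and 2 down of 19 in WT and 1 up and 3 down in KO. Its named genes in WT were *Srp54a* (1.58), a subunit of the signal recognition particle, *Srprb* (1.26), of its receptor, *Sec61g* (-1.997), of the channel, and *Sec63* (-0.94), its J-domain partner (log2 fold changes, adjusted p = 0.000779, 0.000227, 0.00539 and 0.0109). *Srp54a* did not pass in KO (-0.26, adjusted p = 0.556).

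Of 11 genes of the oligosaccharyltransferase, the complex that attaches glycans to new chains, 5 rose and 1 fell in WT and 6 rose and 3 fell in KO. The small subunits *Ostc* and *Ost4* rose by 1.49 and 1.09 in WT (adjusted p = 0.00114 and 0.0025), and the catalytic subunit *Stt3b* fell by 0.91 (adjusted p = 0.0102). The list's median was 0.59 in WT. No gene of any of these 5 lists passed between KO and WT in either state.

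Of 17 sensors and factors of the unfolded protein response, 8 fell and 1 rose in WT, where 18.3% of all genes fell and 11.5% rose. *Ppp1r15a* (Gadd34), which reverses the block of translation set by PERK, went from 1678 to 2087 CPM in quiescent WT to 277 and 575.7 CPM and fell by 2.17 on the log2 scale (SE 0.31, adjusted p = 2.59e-05). *Nfya*, a subunit of the CCAAT-binding factor NF-Y, fell by 2.29 (SE 0.48, adjusted p = 0.0011) from low levels of 7.10 to 11.6 CPM, and in KO it did not pass (-0.83, adjusted p = 0.131). *Rtcb*, the ligase that joins the spliced *Xbp1* message, rose by 0.63 (SE 0.23, adjusted p = 0.0423). In KO, 5 of the list rose and 6 fell. Of the sensors, *Ern1* fell by 1.04 in WT and 1.14 in KO (adjusted p = 0.0344 and 0.0194) and *Atf6* by 1.04 and 1.09 (adjusted p = 0.0388 and 0.0292), and *Eif2ak3* did not pass (-0.09 and -0.94, adjusted p = 0.883 and 0.133); these 3 were named after their values were seen. The WT counts of these lists rested on single libraries. Without WT activated library 2, 5 of the folding factors, 2 of the translocation genes, 3 of the oligosaccharyltransferase genes and 2 of the sensors and factors passed in place of 12, 7, 6 and 9. Without WT activated library 1, the counts were 6, 4, 5 and 4. The translocation count was 4 without WT quiescent library 1 or 3, and the count of sensors and factors was 3 without WT quiescent library 3 or 4. In KO, where 14 folding factors, 10 degradation genes, 4 translocation genes, 9 oligosaccharyltransferase genes and 11 sensors and factors passed in either direction, the counts were 8, 6, 2, 2 and 7 without KO activated library 1, and without library 2 they were 7 for folding factors, 2 for translocation, 5 for the oligosaccharyltransferase and 4 for sensors and factors.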

How the data were processed

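RNA of 12 libraries was sequenced by the authors as paired ends on poly(A)-selected RNA. Per the labels, the authors trimmed reads with Trim Galore 0.6.0 and mapped them with STAR 2.7.2a to GRCm38, and the deposited counts are raw whole-number read counts per gene, made with Rsubread on GENCODE genes. Treatment of strand and of reads with several matches is not given in the sources used here. The FPKM values deposited by the authors, 1 per group, served only to check gene lengths. Groups came from the sample titles, and although the methods of the study count samples as mice, the labels tie no library to a mouse, so p-values measure the spread between these libraries.

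From the counts, edgeR 4.0.16 in R 4.3.3 (filterByExpr, TMM, one fit with 4 group means) gave quasi-likelihood F tests with Benjamini-Hochberg adjustment over 25771 genes, and a gene passed at an adjusted p under 0.05. The SE is the log2 fold change divided by the root of F. Correlations used log2 CPM with a prior count of 2. Exact permutation tests were two-sided. Ratios of *Hspa5* to all genes used counts plus 0.5. Lengths, overlaps and copies came from GENCODE M21, promoters from RefSeq on GRCm38.p6.

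The members and lists were chosen with earlier results of these data known. The text names all members, of each list the 2 highest and 2 lowest fold changes that pass in WT, and the 6 genes most like *Hspa5*. Scripts were tested on simulated counts. Alternatives were DESeq2 1.42.0, its size factors, TMM without the ribosomal RNA gene, no filter, a robust fit, a stricter rule (log2 fold change beyond 1, mean count over 10), a fit without the other groups, a block for the replicate number, and fits that each lacked 1 library. Libraries of a group differed by a chi-square of at least 15.4 per degree of freedom, so none was counted as a duplicate.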

Additional observations from a re-analysis of the deposited data

How the results depend on the processing

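Counts of members that passed on activation ran from 2 to 5 in WT and from 4 to 7 in KO when a library was left out, and the 2 members that passed in WT without WT activated library 2 were *Hspa5* and *Xbp1*. Leaving out an activated library leaves that group with 1 library, which is assumed to vary like the other groups. *Calr* did not pass under the stricter rule in either genotype (adjusted p = 0.0323 and 0.0178, with log2 fold changes of -0.83 and -0.92) or in WT without the filter on low counts (adjusted p = 0.0502), and *Pdia6* passed in KO without that filter (-0.88, adjusted p = 0.0297). *Canx* also passed by DESeq2 (0.71 in WT and 0.65 in KO) and, in WT, with the compared groups only (0.70). Over the settings other than leaving out a library, 375 values of single members kept their direction and side of the threshold, 8 passed newly, 3 no longer passed and 4 changed sign. The genotype difference of *Calr* in quiescent cells changed sign without the filter (0.0059). No alternative gave a member that passed between KO and WT. *Hspa5* stayed lower relative to the 8 other members in all 12 sets that left out a library (difference of its share -28.7 to -25.6 percentage points). The causes were not tested.

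Same-numbered WT and KO quiescent libraries had correlations of deviations of 0.216, 0.173, -0.216 and 0.550, and activated ones of -0.044. As 1 quiescent pair was negative, the libraries were taken to share only a number, though 4 of the 8 quiescent libraries correlated best with their own number and same-numbered depths differed by 0.704 to 4.00%. With the replicate block, 6 members passed on activation in each genotype (5 lower, and *Canx* higher at 0.79 and 0.81), 0 passed in the other comparisons, and *Hspa5* between KO and WT in quiescent cells (-0.016), *Canx* (0.017) and *Xbp1* (0.035) in the difference between states changed sign.

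When each library was left out, these values changed sign and ranged as follows. On activation in WT, *Pdia4* ran from -0.074 to 0.71 and *Sdf2l1* from -0.062 to 0.37, and in KO *Pdia4* from -1.02 to 0.32. Between KO and WT in quiescent cells, *Hspa5* ran from -0.25 to 0.27, *Hsp90b1* from -0.24 to 0.35, *Pdia3* from -0.24 to 0.16, *Pdia4* from -0.053 to 0.32, *Pdia6* from -0.29 to 0.32, *Calr* from -0.17 to 0.094, *Canx* from -0.11 to 0.21, *Dnajb9* from -0.30 to 0.058 and *Xbp1* from -0.28 to 0.15. In activated cells, *Hspa5* ran from -0.55 to 0.15, *Pdia4* from -1.23 to 0.046, *Pdia6* from -0.70 to 0.24, *Calr* from -0.51 to 0.16, *Canx* from -0.015 to 0.092 and *Dnajb9* from -0.73 to 0.33. In the difference between states, *Hspa5* ran from -0.61 to 0.095, *Pdia6* from -0.78 to 0.17, *Calr* from -0.51 to 0.18, *Canx* from -0.13 to 0.19, *Dnajb9* from -0.65 to 0.41 and *Xbp1* from -0.18 to 0.24.

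Over all genes, 13 passed between KO and WT in activated cells, against 8 with DESeq2's size factors, 20 with the robust fit, 334 without the filter, 150 by DESeq2, 23 with the block and 3 with the compared groups only. In quiescent cells 4 passed, against 50 without the filter. For the difference between states 0 passed, against 1 without the ribosomal RNA gene, 8, 170, 47 and 6 with the robust fit, without the filter, by DESeq2 and with the block. Leaving out a library gave 0 to 211, 3 to 7 and 0 to 82 genes in these comparisons, and 4524 to 7244 on activation in WT and 5066 to 8780 in KO, where 7674 and 8693 passed.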
